A study of Mus musculus with 8 samples.

Results

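The subject is the set of nuclear genes that encode subunits of the mitochondrial respiratory chain and ATP synthase, measured in mouse renal cortex with and without SPAK. Members were chosen by gene symbol alone (Nduf subunits, Sdh, Uqcr, Cyc1, Cox4 to Cox8 and Atp5 names) among probe sets annotated with exactly 1 gene, with the brightest probe set kept for each gene. This gave 81 of 19938 measured genes: 35 for complex I, 4 for complex II, 9 for complex III, 17 for complex IV and 16 for complex V. SPAK, the product of Stk39, is a kinase that activates the NaCl cotransporter in distal convoluted tubule cells, and the study looked for genes that might act together to limit renal salt loss in its absence. The 2 groups were SPAK (Stk39) KO mice and their wild-type (WT) littermates, 4 arrays each. All were male C57Bl6J mice aged 10 weeks that ate feed with 0.32% NaCl and 1% KCl, and genotypes came from PCR on tail tissue. Which part of Stk39 was disrupted is not stated in the labels.

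The respiratory chain passes electrons from NADH (complex I) or succinate (complex II) through ubiquinone, complex III and cytochrome c to oxygen at complex IV, and complex V makes ATP from the proton gradient that results. Most subunits are encoded in the nucleus, and the rest in mitochondrial DNA. Proximal tubule, thick ascending limb and distal convoluted tubule cells are rich in mitochondria, because active sodium transport uses much of the kidney's ATP. Several complex IV subunits exist as a ubiquitous or liver-type isoform and a heart and muscle isoform.

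Stk39 ranged from 8.11 to 8.60 on the WT arrays and from 6.79 to 7.21 on the SPAK KO arrays, on the log2 scale of the deposited RMA values (RMA corrects background, puts the arrays on one distribution and merges each probe set's probes into 1 value). Proximal tubule markers, the defining genes of cortex, were bright, with a mean log2 value over 10 genes of 12.29 to 12.43 on all arrays. Agreement within a group was uneven. Over the 6297 genes whose mean was above 8, WT 2 and WT 3 differed by more than 0.4 in 3 genes and the pairs of SPAK KO arrays in 1 to 10, against 119 to 228 in the other WT pairs. WT 2 and WT 3 were therefore counted as 1 sample in WT means ± SD (n = 3), and SPAK KO levels are given per array. P-values of the fit over 8 arrays treat every array as a separate animal and rest on this narrow spread among SPAK KO arrays.

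The respiratory chain genes differed little between the genotypes. Of the 81, 1 was higher and 0 were lower in SPAK KO (limma over all genes, Benjamini-Hochberg adjusted p under 0.05), where 1.39% of all genes were called higher and 0.682% lower, 2.08% in either direction. The gene called was Cox8b, the heart and muscle isoform of complex IV subunit 8. At an unadjusted p under 0.05, 15 members were higher and 4 lower, or 23.5% of them, against 19.1% of all genes. The median log2 difference of the 81 (SPAK KO minus WT) was 0.046, and that of all genes was −0.013. Differences of 0.2 or more in size (1.15-fold) were seen in 11 members, and of 0.3 or more (1.23-fold) in 2, Cox8b and Cox6a2. The 95% confidence interval of the difference lay within 0.3 of 0 for 65 members and within 0.2 of 0 for 38, with a median SE of 0.053. With WT 2 and WT 3 counted once and the SPAK KO arrays counted once, limma called 0 of all 19938 genes (smallest adjusted p = 0.0583), so its count of 0 members says nothing about them. In that fit 3 had an unadjusted p under 0.05: Cox8b, Ndufb7 and Cox7a1, 3.7% of members beside 3.1% of all genes.

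**Figure D1:**
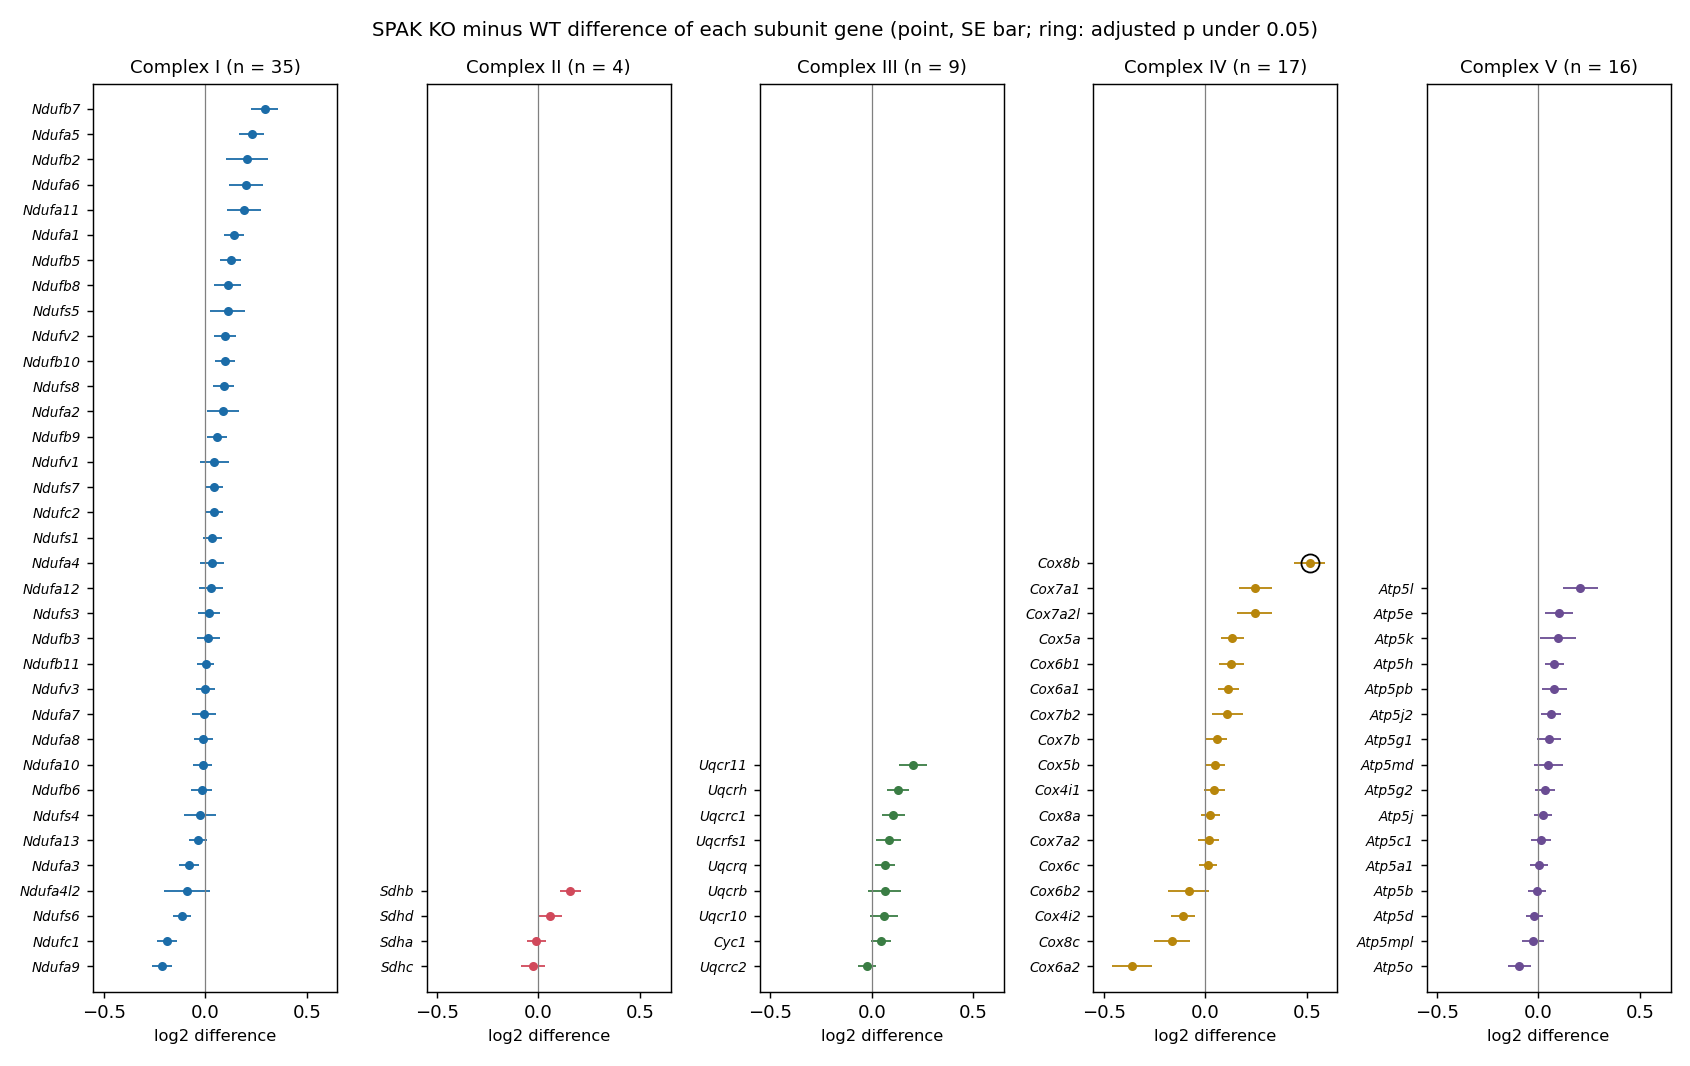
Log2 difference (SPAK KO minus WT, horizontal axis) of each of the 81 subunit genes in 5 panels by complex, with bars for the moderated SE over 8 arrays and a ring around the gene with an adjusted p under 0.05. Most points lie within 0.2 of 0, and the ringed gene is Cox8b at 0.51.

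More members had values above 0 than below it, and the share of all genes that did so depended on their brightness. Of the members, 59 had a difference above 0 and 22 below it, so 72.8% were above 0 against 45.8% of all genes. Among genes with a mean of 8 or more, the shares were 75.7% of 70 members and 64.5% of all 6297 genes, with medians of 0.048 and 0.034, although these members are brighter (median level 11.54) than these genes (9.23). By level, 44.4% of 9 members with a mean of 6 to 8 were above 0, against 50.1% of all genes. Their medians were −0.081 and 0.00030. For means of 8 to 10, the shares were 90% of 10 members and 66.9% of all genes, with medians of 0.127 and 0.040. With a mean of 10 to 12, 71.1% of 38 members and 59% of all genes were above 0, with medians of 0.045 and 0.023. With a mean of 12 to 15 it was 77.3% of 22 members and 54.9% of all genes, with medians of 0.029 and 0.0081. Whether the members differ from genes of equal brightness was not tested. All 4 SPAK KO arrays lay above all 4 WT arrays for 12 members (14.8%) and below them for 4 (4.94%), where 6.9% and 5.71% of all genes did so. With a mean of 8 or more, the shares that lay above were 14.3% of members and 14.2% of all genes. These shares moved with the scaling of the arrays. Members with a difference above 0 numbered 53 after quantile normalization again, 51 after cyclic loess and 71 with each array centred on its median, and the median difference was 0.043, 0.033 and 0.104. The median of all genes with a mean of 10 or more was 0.020 as deposited, and 0.00065, −0.0050 and 0.078 under these scalings. Centring moved the median of all genes from −0.013 to 0.046 and changed the split of calls over all genes from 278 higher and 136 lower to 673 and 88.

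**Figure D2:**
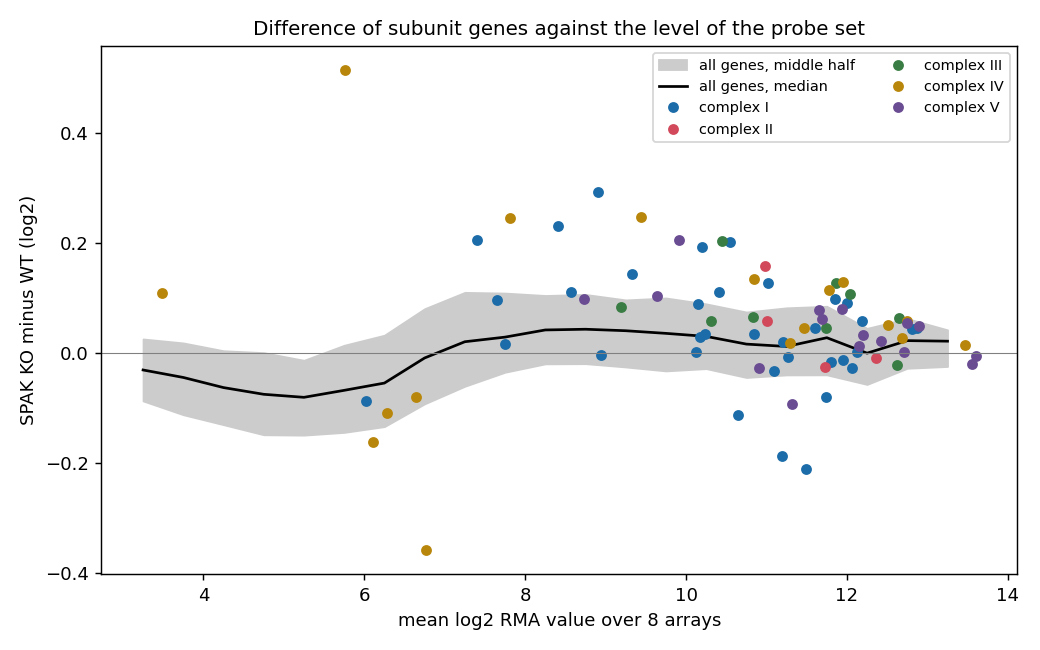
Log2 difference (SPAK KO minus WT, vertical axis) of the 81 subunit genes, coloured by complex, against their mean log2 RMA value over 8 arrays (horizontal axis), with the median (line) and the interquartile range (grey band) of all genes in steps of 0.5. The line is below 0 for genes with a mean under 7 and above it for brighter genes, except at −0.00063 between 12 and 12.5, and most subunit genes lie to the right, between 10 and 13.6.

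Promoter sequence was not used in the choice by symbol. Each of 4 motifs searched was more frequent among members than among array genes, but was absent from most members, and the excess was not tested. RefSeq promoters (GRCm38.p6, 250 bases before to 50 after the first listed start) were matched by gene identifier for 65 of the 81. The NRF1 motif (GCGC, any base, T, then GCGC), bound by nuclear respiratory factor 1, a regulator of respiratory genes, was present on either strand in 14 of 65 (21.5%), against 7.27% of 15563 genes on the array with a promoter. The ETS motif CCGGAAG, which GABP binds, was in 16 (24.6%) against 12.5%. The YY1 motif AAGATGGC was in 9 (13.8%) against 3.43%, after the start in 8 and across it in 1. The ESRRA half-site AAGGTCA was in 6 (9.2%) against 3.78%. In these promoters, 0 matches of different motifs overlapped each other. The median log2 difference between genotypes was 0.088 with the NRF1 motif and 0.051 without it, and 0.10 with the ETS motif and 0.046 without it. It was 0.107 with the ESRRA half-site and 0.050 without it, and in the other direction −0.027 with the YY1 motif and 0.058 without it. For each motif the ranges with and without it overlapped, as from 0.0585 to 0.206 and from −0.211 to 0.514 for ESRRA. These differences were not tested, and members with and without a motif were not matched for brightness.

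Windows of 100 bases that end just before the start show the range, from that of Cox8b without an NRF1 or ETS match to that of Sdha with 3 NRF1 matches, and also give Ndufb7, Sdhd and Uqcr11, which are described below. They run 5′ to 3′ along the gene and capitals mark NRF1 matches (GCGC at both ends) and ETS matches (CCGGAAG or CTTCCGG). They lie at chr7:140900447-140900546 (minus strand, Cox8b), chr8:83566658-83566757 (plus, Ndufb7), chr13:74350241-74350340 (minus, Sdha), chr9:50603850-50603949 (minus, Sdhd) and chr10:80406822-80406921 (minus, Uqcr11).
Cox8b: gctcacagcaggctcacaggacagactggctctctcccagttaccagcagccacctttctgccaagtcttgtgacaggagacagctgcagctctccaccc
Ndufb7: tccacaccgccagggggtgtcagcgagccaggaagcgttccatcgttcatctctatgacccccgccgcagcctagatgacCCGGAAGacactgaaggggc
Sdha: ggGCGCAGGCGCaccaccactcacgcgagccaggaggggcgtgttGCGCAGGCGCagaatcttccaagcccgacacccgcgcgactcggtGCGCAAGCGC
Sdhd: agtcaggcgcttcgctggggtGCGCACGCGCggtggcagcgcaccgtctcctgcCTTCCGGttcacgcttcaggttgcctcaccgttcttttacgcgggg
Uqcr11: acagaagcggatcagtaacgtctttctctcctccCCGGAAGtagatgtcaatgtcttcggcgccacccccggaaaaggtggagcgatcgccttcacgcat

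Complex I oxidises NADH, and none of its 35 genes passed, with 6 higher and 3 lower at an unadjusted p under 0.05. The median difference was 0.035, between −0.21 and 0.29. In the NADH-binding part, Ndufv1, which carries the flavin that takes electrons from NADH, read 11.37, 11.73, 11.59 and 11.62 on WT 1 to 4 and 11.61, 11.65, 11.60 and 11.64 on SPAK KO 1 to 4. WT 1 was the lowest array and the groups overlapped, with a difference of 0.046 ± 0.071 (SE; 95% interval −0.11 to 0.20). Ndufs1, the largest iron-sulfur subunit, ranged from 10.17 to 10.26 in WT and from 10.20 to 10.27 in SPAK KO, a difference of 0.035 ± 0.046.

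Among accessory subunits, Ndufb7 of the membrane arm had the smallest p of the higher genes. Its values were 8.74, 8.88, 8.83 and 8.58 in WT and 9.06, 9.04, 9.04 and 9.06 in SPAK KO. All SPAK KO arrays lay above all WT arrays and within 0.03 of each other, and the WT mean was 8.73 ± 0.14 (SD, n = 3). The difference of 0.29 ± 0.066 (1.23-fold) just missed the threshold (limma adjusted p = 0.0534). It passed with WT 4, its lowest array, left out (0.23, adjusted p = 0.048), with arrays centred on their median (0.0259), with means under 6 left out (0.0265) and with a trended, robust variance model (0.0151).

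Ndufa9, an accessory subunit where both arms of the complex meet, had the smallest p of those with a difference below 0. It read 11.67, 11.61, 11.59 and 11.51 in WT and 11.36, 11.40, 11.39 and 11.39 in SPAK KO. The groups did not overlap, and the difference was −0.21 ± 0.049 (adjusted p = 0.0599). It passed in 1 of 8 fits that left out 1 array, the fit without WT 4 (0.0339). It also passed with means under 6 left out (0.0233) and with the trended, robust model (0.00664). It did not pass with centring (0.12), quantile normalization again (0.0659), cyclic loess (0.0568) or WT 2 and WT 3 averaged (0.114).

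The other complex I genes with separated groups were named after their values were seen, and none of them passed. On every SPAK KO array, Ndufa5 (by 0.23), Ndufa1 (0.14), Ndufb5 (0.13), Ndufv2 (0.099) and Ndufs7 (0.046) lay above every WT array. Ndufc1 (−0.19) and Ndufs6 (−0.11) lay below. Ndufc1 passed with means under 6 left out (adjusted p = 0.0389) and with the trended, robust model (0.016), and Ndufa5 with that model (0.0448) and with centring (0.0466). Ndufc1 has a second, dimmer probe set that gave −0.055, which is the widest disagreement between probe sets of a member (0.134). Ndufa4, named for complex I but later placed in complex IV, differed by 0.034 ± 0.060. Its paralog Ndufa4l2, a known hypoxia target, read 6.36, 6.12, 6.01 and 5.78 in WT and 6.10, 5.93, 6.08 and 5.81 in SPAK KO, a wide WT spread that covered every SPAK KO value.

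Complex II links the tricarboxylic acid cycle to the chain, and 0 of its 4 genes passed. Sdhb, the iron-sulfur subunit, read 10.86, 10.97, 10.95 and 10.82 in WT and 11.09, 11.03, 11.09 and 11.02 in SPAK KO. Its groups did not overlap, and the difference of 0.16 ± 0.052 had an adjusted p of 0.146 (limma). The other subunits overlapped between groups. Sdha, the flavoprotein that oxidises succinate and whose promoter window holds 3 NRF1 matches, ranged from 12.33 to 12.41 in WT and from 12.30 to 12.42 in SPAK KO, a difference of −0.010 ± 0.048 (95% interval −0.12 to 0.096). The membrane anchors Sdhc and Sdhd differed by −0.026 ± 0.060 and 0.058 ± 0.058. With centring, Sdha and Sdhc became positive.

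Complex III passes electrons from ubiquinone to cytochrome c, and 0 of 9 genes passed, although 8 had a difference above 0. The median was 0.065. Uqcr11, a small accessory subunit, read 10.38, 10.39, 10.36 and 10.27 in WT and 10.74, 10.42, 10.49 and 10.56 in SPAK KO. The groups did not overlap, with SPAK KO 1 the highest, and the difference was 0.20 ± 0.070 (adjusted p = 0.160). Uqcrh, the hinge protein, was the other gene with separated groups (0.13 ± 0.054, adjusted p = 0.238; chosen after its values were seen). The core proteins Uqcrc1 and Uqcrc2 gave 0.11 ± 0.055 and −0.023 ± 0.045, the Rieske protein Uqcrfs1 0.083 ± 0.061 and cytochrome c1, Cyc1, 0.045 ± 0.050. Uqcrc2 was the only complex III gene below 0, and centring made it positive.

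Complex IV reduces oxygen, and its tissue-restricted isoforms held the largest differences of all 81 genes in either direction. Cox8b read 5.61, 5.49, 5.54 and 5.35 in WT and 6.19, 5.93, 5.96 and 5.97 in SPAK KO. All SPAK KO arrays lay above all WT arrays, and SPAK KO 1 was the highest. From 5.49 ± 0.13 in WT (SD, n = 3) the difference was 0.51 ± 0.075 (1.43-fold, 95% interval 0.35 to 0.68, limma adjusted p = 0.009). It passed in 8 of 8 fits that left out 1 array (0.45 to 0.55, adjusted p 0.00986 to 0.0324). The probe set is dim, and leaving out genes with a mean under 6 removed it. With agreeing arrays counted once, the difference of Cox8b was 0.52, in a fit that holds 1 SPAK KO sample.

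The other heart and muscle isoforms gave estimates of opposite sign and did not pass. Cox7a1 read 9.30, 9.23, 9.47 and 9.25 in WT and 9.76, 9.46, 9.46 and 9.57 in SPAK KO. WT 3 lay just above SPAK KO 2 and SPAK KO 3, so the groups overlapped, and the difference was 0.25 ± 0.081 (adjusted p = 0.142). Cox6a2 read 6.78, 6.89, 6.86 and 7.28 in WT and 6.56, 6.62, 6.64 and 6.56 in SPAK KO. Its groups did not overlap and WT 4 stood above the rest. The difference of −0.36 ± 0.097 (adjusted p = 0.0938) was −0.25 without WT 4, where it passed (adjusted p = 0.0417).

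Cox8b, Cox7a1 and Cox6a2 are genes of muscle and Cox8b and Cox7a1 also of brown fat, so markers of both tissues are given beside them. Of 8 muscle markers 0 were called, and their mean log2 value was 5.79 to 5.94 on the WT arrays and 5.75 to 5.90 on the SPAK KO arrays. Ckm, muscle creatine kinase, ranged from 6.09 to 6.36 and from 6.01 to 6.36. Of 8 markers of brown and white fat, Retn was called (0.31 ± 0.067, limma adjusted p = 0.0467, in 0 of 8 fits that left out 1 array). The list's mean was 5.33 to 5.41 in WT and 5.45 to 5.59 in SPAK KO, without overlap. The list is dim, with a median level of 4.86, where the median of all probe sets was 6.09 to 6.19 on the arrays. Of its 8 markers, 6 (75%) had a difference above 0, where 45.8% of all genes did so. At an unadjusted p under 0.05, 4 (50%) were higher and 0 lower, against 19.1% of all genes in either direction. The 2 below 0 were Elovl3 (−0.084) and Dio2 (−0.023). Ucp1, the uncoupling protein that defines brown fat, ranged from 4.80 to 5.14 and from 5.05 to 5.28 (adjusted p = 0.421), and Cidea from 4.38 to 4.70 and from 4.696 to 5.12 (adjusted p = 0.150). The part of fat or muscle in the isoform values was not tested. In whole cortex, a change in the number of cells of a type and in RNA per cell cannot be told apart.

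**Figure D3:**
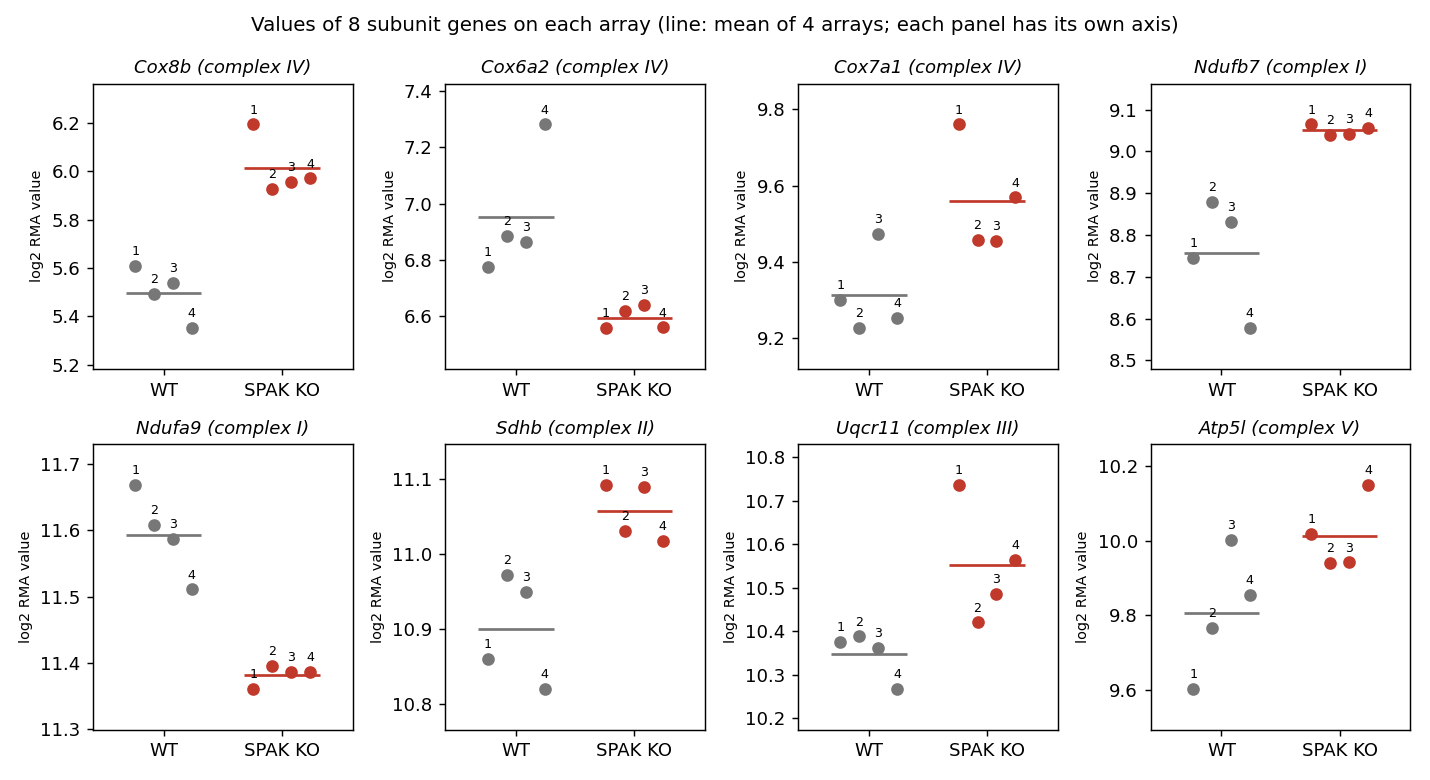
Log2 RMA values (vertical axis, a separate range in each panel) of 8 subunit genes on WT arrays (grey) and SPAK KO arrays (red), with array numbers above the points and a line at the mean of 4 arrays. Cox8b, Ndufb7, Sdhb and Uqcr11 do not overlap and are higher in SPAK KO, Ndufa9 and Cox6a2 do not overlap and are lower, and Cox7a1 and Atp5l overlap.

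The ubiquitous and liver-type subunits of complex IV showed small differences. Cox4i1, the common form of subunit 4, ranged from 11.34 to 11.50 in WT and from 11.45 to 11.53 in SPAK KO (0.045 ± 0.052). Cox5a, a subunit with a single isoform, was higher on every SPAK KO array (10.89 to 10.97) than on every WT array (10.65 to 10.88), by 0.13 ± 0.057 (adjusted p = 0.241). Cox6a1 gave 0.11 ± 0.051, Cox7a2 0.018 ± 0.053 and Cox8a 0.026 ± 0.048, and the groups overlapped for each. A choice made after the values were seen set aside 7 tissue-restricted genes (Cox4i2, Cox6a2, Cox6b2, Cox7a1, Cox7b2, Cox8b and Cox8c). The 10 remaining genes all had a difference above 0, between 0.013 and 0.25, with 0 called. All 4 complex IV genes below 0 were among the 7, so that count was fixed by the choice. Among the 10 kept, Cox7a2 was below 0 after quantile normalization or cyclic loess (−0.0020 and −0.0057). Cox4i2, the second form of subunit 4, gave −0.11 ± 0.061 and the testis isoform Cox8c −0.16 ± 0.088. Cox7a2l, a relative of subunit 7a, was the remaining gene with separated groups, at 0.25 ± 0.086 (limma adjusted p = 0.168, named after its values were seen).

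Complex V, the ATP synthase, showed differences from −0.093 to 0.21, and 0 of 16 genes passed. In 0 of 16 were the groups apart. The catalytic F1 subunit Atp5b read 13.57, 13.61, 13.63 and 13.59 in WT and 13.56, 13.59, 13.60 and 13.63 in SPAK KO. The difference was −0.0062 ± 0.044, with a 95% interval of −0.11 to 0.092. Atp5a1, its partner in the F1 head, gave 0.0017 ± 0.044 (−0.097 to 0.10). These estimates were too close to 0 for their sign to hold: Atp5b turned positive and Atp5a1 negative under other scalings.

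Subunit g of the membrane part, Atp5l, was the complex V gene with the smallest p. It read 9.60, 9.77, 10.00 and 9.86 in WT and 10.02, 9.94, 9.94 and 10.15 in SPAK KO. WT 3 lay within the SPAK KO range, and the difference was 0.21 ± 0.085 (adjusted p = 0.229). Its 6 probe sets gave 0.15 to 0.22. Atp5o, of the stalk that holds the F1 head still, had the smallest p of those below 0 (−0.093 ± 0.057, adjusted p = 0.402).

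Across arrays, the subunit genes varied less than the average gene. Their median SD over 3 WT samples was 0.074, against 0.093 for all genes. The subunit genes are also brighter (median level 11.2 against 6.72), and the SD was not compared at equal brightness. WT 1 was the lowest or highest WT array for 59 of 81 members, 27 times lowest and 32 times highest. The same count was 27 for WT 2, 33 for WT 3 and 43 for WT 4. WT 2 and WT 3 nearly agree, which can make WT 1 and WT 4 extremes more often in any gene set. This was not tested, and the share over all genes was not counted. WT 4 was the lowest for 39, and SPAK KO 1 was the highest SPAK KO array for 40. The median deviation of the 81 from their 8-array means was −0.054 on WT 4 and 0.043 on SPAK KO 1, and between −0.014 and 0.034 on the others. Over all genes with a mean of 10 or more, the same median was −0.0031 on WT 4 and 0.011 on SPAK KO 1. Without WT 4 the median difference of the 81 was 0.032.

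**Figure D4:**
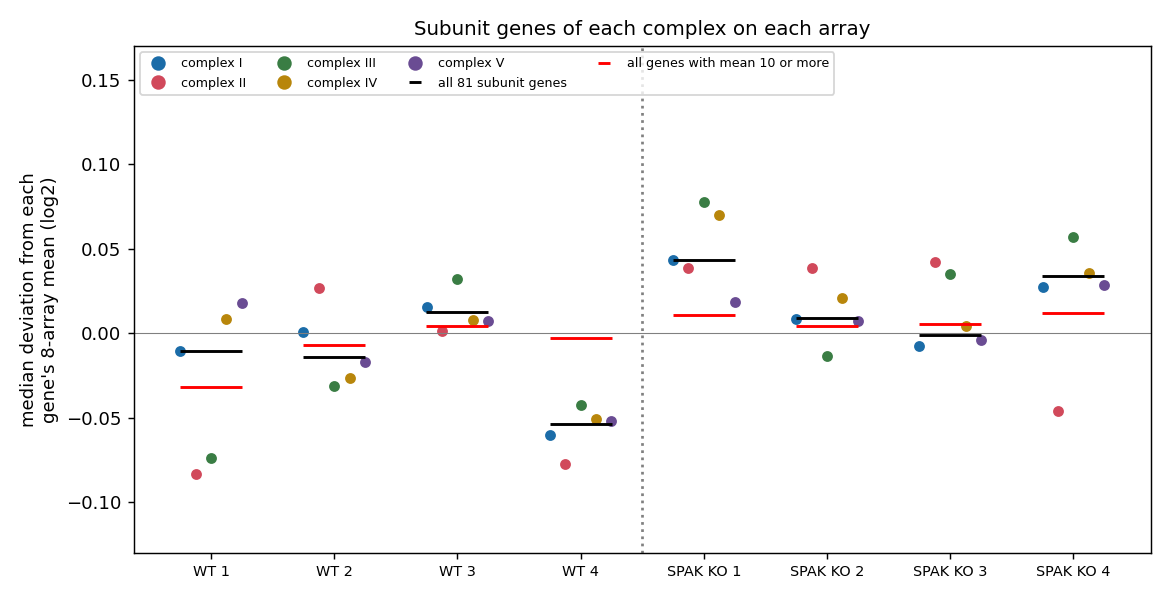
Median deviation (log2, vertical axis) of the subunit genes of each complex (coloured points) and of all 81 (black line) from each gene's mean over 8 arrays, by array, with the same median over all genes with a mean of 10 or more (red line). WT 4 is low for every complex, WT 1 is lowest for complexes II and III, and SPAK KO 1 is above 0 for every complex.

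Few genes that work with the chain passed the threshold. Of 40 measured assembly factors 0 passed (median 0.00078). At an unadjusted p under 0.05, 5 were higher and 5 lower, or 25% against 19.1% of all genes. Surf1, which helps assemble complex IV, came nearest at 0.21 ± 0.048 (adjusted p = 0.0598), and Cox15, which makes its haem A, gave −0.15 ± 0.047. Of 13 tricarboxylic acid cycle genes 0 passed at either level (median 0.028), with Suclg1 at 0.091 ± 0.048 and Idh2 at 0.087 ± 0.062. Of 16 genes for mobile carriers and adenine nucleotide exchange 0 passed (median 0.062). At an unadjusted p under 0.05, 5 were higher and 0 lower, or 31.2% against 19.1% of all genes. They were led by the ubiquinone synthesis genes Coq4 (0.19 ± 0.047, limma adjusted p = 0.077) and Coq8a (0.17 ± 0.048).

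Of 18 regulators of mitochondrial genes 0 passed, with 1 higher and 1 lower at an unadjusted p under 0.05 and a median of 0.026. Gabpa, the DNA-binding subunit of GABP, ranged from 8.14 to 8.22 in WT and from 8.27 to 8.39 in SPAK KO (0.14 ± 0.048, adjusted p = 0.171). Nrf1 gave −0.15 ± 0.060 (adjusted p = 0.229). Among uncoupling and inhibitor proteins, 3 were measured and 0 passed at either level, with Ucp1 as above and Atpif1, the inhibitor of complex V, at −0.049 ± 0.051. Of 77 mitochondrial ribosomal protein genes, taken by symbol after the member values were seen, 64 (83.1%) had a difference above 0 (median 0.060). Their median level was 8.85, and among all genes with a mean of 8 to 10, 66.9% were above 0 (median 0.040). The excess was not tested. Only Mrpl49 was called (0.27 ± 0.049, limma adjusted p = 0.0218, in 3 of 8 fits that left out 1 array).

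Markers of mitochondria-rich tubule cells are given beside the subunit genes. Of 7 thick ascending limb markers 2 were higher, Cldn16 (0.32 ± 0.046) and Casr (0.31 ± 0.056, in 2 of 8 fits that left out 1 array), with a list mean of 10.36 to 10.43 in WT and 10.57 to 10.61 in SPAK KO. Of 10 proximal tubule markers 2 were higher, Aqp1 (0.34 ± 0.058, in 5 of 8 such fits) and Slc3a1 (0.28 ± 0.052, in 2 of 8), with means of 12.29 to 12.35 and 12.42 to 12.43. Of 7 distal convoluted tubule markers, Pvalb (−1.30 ± 0.089) and Trpm6 (−0.63 ± 0.099) were lower, with means of 9.91 to 10.07 and 9.71 to 9.715. Intercalated cell markers had 4 of 7 higher, by 0.36 to 0.65 (Atp6v1b1 in 2 of 8 such fits), with means of 9.45 to 9.68 and 9.86 to 9.94. All 7 thick ascending limb markers had a difference above 0, 6 of them at an unadjusted p under 0.05. Markers within the other lists did not all move together. Below 0 were 3 proximal tubule markers, among them Slc5a2 (−0.17 ± 0.068, groups apart), and 1 intercalated cell marker, Slc4a1 (−0.15 ± 0.113). Above 0 were 2 distal convoluted tubule markers, Trpv5 (0.14 ± 0.044, groups apart) and Slc8a1 (0.13 ± 0.119). The part of all these markers in the subunit values was not tested.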

How the data were processed

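Total RNA of dissected renal cortex (6 µg per sample, per the labels' protocols) was measured on 8 Affymetrix arrays. The values are log2 expression as the authors deposited it. The submitters' processing notes name RMA and Affymetrix Expression Console; version, build and filters are not given in the sources used here. RMA shrinks differences of dim genes, and no detection call comes with the values. The number of arrays also limits precision. Of 35556 probe sets, 21789 had 1 symbol, 1621 several and 12146 none in the platform annotation. The brightest probe set of each of 19938 genes was fitted with limma 3.58.1 (lmFit, eBayes; R 4.3.3; statmod 1.5.0 for the robust model), genotype as the only term, called at a Benjamini-Hochberg adjusted p under 0.05. The script was tested on simulated data. SE is limma's moderated SE. Members had 105 probe sets, and 6 more with several symbols (Cox7c, Ndufb4 and a copy of Ndufs5 among them) were left out. Close copies and pseudogenes of small subunits can share probes, so their values are less certain. One member-like gene is not reported here. Members and lists were chosen with earlier results of these data known. The genes named were those called, the smallest p in each direction per complex, and a fixed list of core and isoform genes, 29 in all; others are said to be chosen afterwards. Labels number 4 mice per group; same-numbered arrays correlated at −0.065 to 0.19 in their deviations, so the numbers were not taken as pairs.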

Additional observations from a re-analysis of the deposited data

Results flagged for a closer look

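In a group of 4 arrays, 1 array stood far from the other arrays for 3 of the 29 named genes. Cox8b read 6.19 on SPAK KO 1, with the next array at 5.97. Atp5o read 11.23 on SPAK KO 4, with the next at 11.27. Ndufs1 read 10.20 on SPAK KO 3, with the next at 10.26. Of 58 groups tested, chance flags about 1 in 20. For Atp5o the WT arrays ranged more widely, from 11.21 to 11.45, and for Ndufs1 from 10.17 to 10.26. Without SPAK KO 1, the difference of Cox8b was 0.45 (limma adjusted p = 0.0259).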

How the results depend on the processing

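The count of 1 higher and 0 lower members held under the alternatives run except those named here. Left-out arrays gave 1 to 2 higher and 0 to 2 lower members (2 and 2 without WT 4), and a median difference of 0.032 to 0.063. Centring arrays on their median gave 3 higher and a median of 0.104, the trended, robust model 3 higher and 2 lower, and leaving out means under 6 gave 1 higher (Ndufb7, since Cox8b is left out) and 2 lower. Counting agreeing arrays once gave 0 higher. The replicate block, a hint only since numbers do not pair the mice, kept 1 higher and 0 lower members (Cox8b, adjusted p = 0.0204). Over all genes, 278 higher and 136 lower became 129 and 45 with the block, 175 and 78 with WT 2 and WT 3 averaged, 0 and 0 with agreeing arrays counted once (limma; 618 genes at an unadjusted p under 0.05), 673 and 88 with centring, 462 and 202 without dim genes, 526 and 241 with the trended, robust model, and 106 to 407 and 50 to 218 with 1 array left out. Of 29 named genes, 18 kept their direction under every alternative run, and 11 with differences up to 0.088 reversed at least once. With 1 array left out, the ranges were −0.015 to 0.015 (Atp5a1), −0.019 to 0.0045 (Atp5b), −0.015 to 0.044 (Cox7a2), −0.00066 to 0.049 (Cox8a), −0.0013 to 0.072 (Ndufa4), −0.18 to 0.0081 (Ndufa4l2), −0.023 to 0.095 (Ndufv1), −0.032 to 0.0067 (Sdha) and −0.078 to 0.0015 (Sdhc). Quantile normalization reversed Atp5a1 (−0.0061), Atp5b (0.018), Cox7a2 (−0.0020) and Ndufs1 (−0.00011); cyclic loess, chosen after seeing the data, Atp5a1 (−0.0072) and Cox7a2 (−0.0057); centring Atp5b (0.052), Sdha (0.048), Sdhc (0.032) and Uqcrc2 (0.036); averaging WT 2 and WT 3, with or without averaging SPAK KO, Atp5b (0.00083). The cause was not tested.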
